A study of Rattus norvegicus with 6 samples.

Results

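Heat shock proteins and their J-domain cochaperones were taken as every gene symbol of the count table that starts with Hspa, Hspb, Hspd, Hspe, Hsph, Hsp90 or Dnaj, which gave 73 of 17487 symbols. Of these, 44 are J-domain symbols (Dnaj) and 29 are heat shock protein symbols or the binding proteins Hspbp1 and Hspbap1, whose names share the prefix. By the compartment in which their proteins work, 47 were placed in the cytosol, nucleus or vesicle surface, 13 in the endoplasmic reticulum and 10 in mitochondria, and Dnajc22, Hspb11 and Hspbap1 were left unplaced. RNA came from the hearts of adult male Wistar rats, an outbred strain, with 3 rats and 3 libraries in each group, so that p-values measure the spread between these animals. The doxorubicin animals had an intravenous injection of 3.75 mg/kg of this anthracycline each week for 4 weeks, and the control animals had 0.9% saline on the same schedule. The part of the heart and the interval after the last injection were not given in the sources used here, and in whole tissue fewer cells of a type cannot be told apart from less RNA per cell.

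Hsp70 proteins (Hspa) bind and release unfolded stretches of other proteins in a cycle driven by ATP, J-domain proteins bring them their clients and trigger the ATP step, and nucleotide exchange factors such as Hsph1 reset them. Hsp90 proteins finish the folding of kinases and receptors, the small heat shock proteins (Hspb) hold unfolding proteins without using ATP and are abundant in muscle, and the Hspd1 and Hspe1 proteins form the folding chamber of the mitochondrial matrix. Many of these genes are induced by heat shock factor 1, which binds repeats of the heat shock element, whereas reticulum members are induced through the unfolded protein response, whose factors bind the reticulum stress element.

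Start regions are shown for 7 members that hold a match to an element of these 2 responses, together with Dnajb5, whose difference between the groups had the smallest p of all members. The RefSeq promoter table of the GRCr8 build held 58 of the 73 members, with 250 bases before and 50 after each start. It had no entry for Dnaja2, Dnajb4, Dnajc11, Dnajc12, Dnajc15, Dnajc2, Dnajc22, Dnajc24, Dnajc5b, Dnajc8, Hsp90aa1, Hspa12a, Hspa1b, Hspb11 and Hspb2. Each line below gives 60 bases upstream of a start, 5′ to 3′ in the direction of the gene. Capitals mark a match to the 3-unit heat shock element (GAANNTTC continued by NNGAA, or TTCNNGAA continued by NNTTC) in Hspa8, Hsph1 and Hspe1, to its 2-unit form (GAANNTTC or TTCNNGAA) in Hspb1, and to the reticulum stress element (CCAAT, then NNNNNNNNN, then CCACG, or the same on the other strand) in Hspa5, Hsp90b1 and Dnajc3. The stretches lie at chr8:50080439-50080498 on the plus strand (Hspa8), chr12:10427308-10427367 plus (Hsph1), chr9:64084247-64084306 plus (Hspe1), chr12:26432382-26432441 minus (Hspb1), chr3:38452956-38453015 plus (Hspa5), chr7:23012324-23012383 minus (Hsp90b1), chr15:102432514-102432573 plus (Dnajc3) and chr5:61972646-61972705 plus (Dnajb5).
Hspa8: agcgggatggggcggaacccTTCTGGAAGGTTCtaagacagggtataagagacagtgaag
Hsph1: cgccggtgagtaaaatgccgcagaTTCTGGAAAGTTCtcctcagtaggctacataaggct
Hspe1: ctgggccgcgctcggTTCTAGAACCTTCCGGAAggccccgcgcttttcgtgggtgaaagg
Hspb1: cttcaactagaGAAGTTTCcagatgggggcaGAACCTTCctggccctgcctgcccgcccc
Hspa5: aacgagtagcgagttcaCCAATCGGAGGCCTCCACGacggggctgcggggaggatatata
Hsp90b1: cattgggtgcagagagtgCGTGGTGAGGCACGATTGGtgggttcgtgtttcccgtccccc
Dnajc3: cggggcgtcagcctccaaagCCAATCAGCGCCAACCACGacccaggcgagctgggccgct
Dnajb5: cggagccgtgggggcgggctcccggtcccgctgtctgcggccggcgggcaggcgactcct

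The 3-unit heat shock element was in the start regions of 5 of the 58 members, Dnaja1, Hspa8, Hspd1, Hspe1 and Hsph1, or 8.62%, against 0.798% of all 33469 promoters of this length. The shorter 2-unit form, which lies inside the longer one, was in 27.6% of the members and 15.9% of all promoters. The reticulum stress element was in 3 members, Dnajc3, Hsp90b1 and Hspa5, or 5.17%, against 0.0657% of all promoters. Hspd1 and Hspe1 are transcribed away from each other from start regions that share 211 bases, so a single run of elements is counted for both. Neither element was found on either strand of the Dnajb5 window, nor in that of the heat-inducible Hspa1a, and Dnajb1 held the 2-unit form only. Letters that match an element describe the sequence and do not show that a factor binds there.

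The libraries held 2219685 to 3508282 counts, and the level taken as detectable, 3 counts, was 0.855 to 1.35 CPM by library size alone. Gene levels are given in CPM, the counts scaled to library size with TMM factors. The share of each library that fell on members was 1.63%, 1.83% and 1.62% for control 1, 2 and 3, and 1.87%, 1.84% and 1.91% for doxorubicin 1, 2 and 3. These shares did not overlap, but the summed TMM-scaled levels did, at 18239.9, 18014 and 16064 CPM against 18349, 17849 and 18243 CPM. Control library 1 stood apart on the first principal component of all tested symbols (-43.3, against -4.83 to 26.6 for the others), so for the members named, values without it are given where they differ in sign or by more than 1.5 times. It also held 163 CPM of the atrial marker Myl7, against 2.06 to 6.40 CPM in the other 5 libraries, and 68.1 CPM of Myl4, against 5.29 to 25.9 CPM. The 4 atrial markers, Nppa among them, summed to 186 to 697 CPM in control and 286 to 3276 CPM in doxorubicin libraries. Nppa alone made up most of the highest sum, with 3241 CPM in doxorubicin library 1, and had a log2 fold change of 2.18. The other markers went the other way, with log2 fold changes of -3.73 for Myl7 and -0.88 for Myl4. Sln, which was not tested, had means of 13.2 CPM in control and 0.74 CPM in doxorubicin libraries. Of the 8 cardiomyocyte markers 7 were tested, and Tpm1 was listed at 0. Their summed level was 105573 to 120734 CPM in control and 85634.5 to 99171 CPM in doxorubicin libraries, and 1 of the 7 had a log2 fold change above 0. The 8 macrophage markers summed to 156 to 176 CPM in control and 188 to 291 CPM in doxorubicin libraries, and 7 of them had a log2 fold change above 0. The 7 erythroid markers summed to 1965 to 7139 CPM and 685 to 2604 CPM, with Alas2 listed at 0. The part of these shifts in the levels of the members was not tested.

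After 4 weeks of doxorubicin, no single chaperone transcript of the heart passed the adjusted threshold, and the smallest p belonged to Dnajb5, which was higher. None of the 63 members that passed the low-count filter had a Benjamini-Hochberg adjusted p under 0.05 in edgeR's quasi-likelihood test, where 0.0543% of the 9205 symbols tested did. The tool DESeq2 called 1 member, Dnajb5, where it called 0.842% of all symbols. With limma voom 0 members and 0 symbols were called. At an unadjusted p under 0.05 edgeR had 4 members, 6.35% of those tested against 8.1% of all symbols. All 4, Dnajb5, Hsp90aa1, Dnajc12 and Hspb3, were higher in doxorubicin, where the share of all symbols was 4%, and the 0 members lower compare with 4.11% of all symbols. For 5 members the 2 groups held no common range, 7.94% against 13.4% of all symbols. Doxorubicin lay above control for 4 of them (Dnajb5, Dnajc12, Hspa1l and Hspb3), against 6.39% of all symbols, and below control for Dnajb3, against 7.06%. Without control library 1, 4 members had an unadjusted p under 0.05 and the share of all symbols was 5.61%. Without doxorubicin library 3 there were 2 members, against 6.42% of all symbols. The direction was not the same in every such fit: without control library 3 there were 1 higher and 2 lower (6.77% of all symbols), without doxorubicin library 1 there were 2 higher and 1 lower (6.69%), and without doxorubicin library 2 there were 5 higher and 1 lower (9.53%). Without control library 1 the groups did not overlap for 11 members and for 20.5% of all symbols, a count that is larger whichever library is left out, because fewer values have to be separated.

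The fitted differences were small on the log2 scale used throughout, doxorubicin minus control, on which 1 is a doubling. The 63 ranged from -0.58 for Dnajb3 to 0.83 for Hspa13, with a median of 0.06 against 0.02 for all symbols, and 39 were above 0 (61.9%, against 52.1% of all symbols) and 24 below, where 47.9% of all symbols were. The 95% interval of the log2 fold change lay wholly inside a 2-fold change in either direction for 53 members (84.1%, against 70.3% of all symbols) and inside a 1.5-fold change for 22 (34.9%, against 21.5%). For the other 10 members a 2-fold change lies inside or at the edge of the interval.

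**Figure D1:**
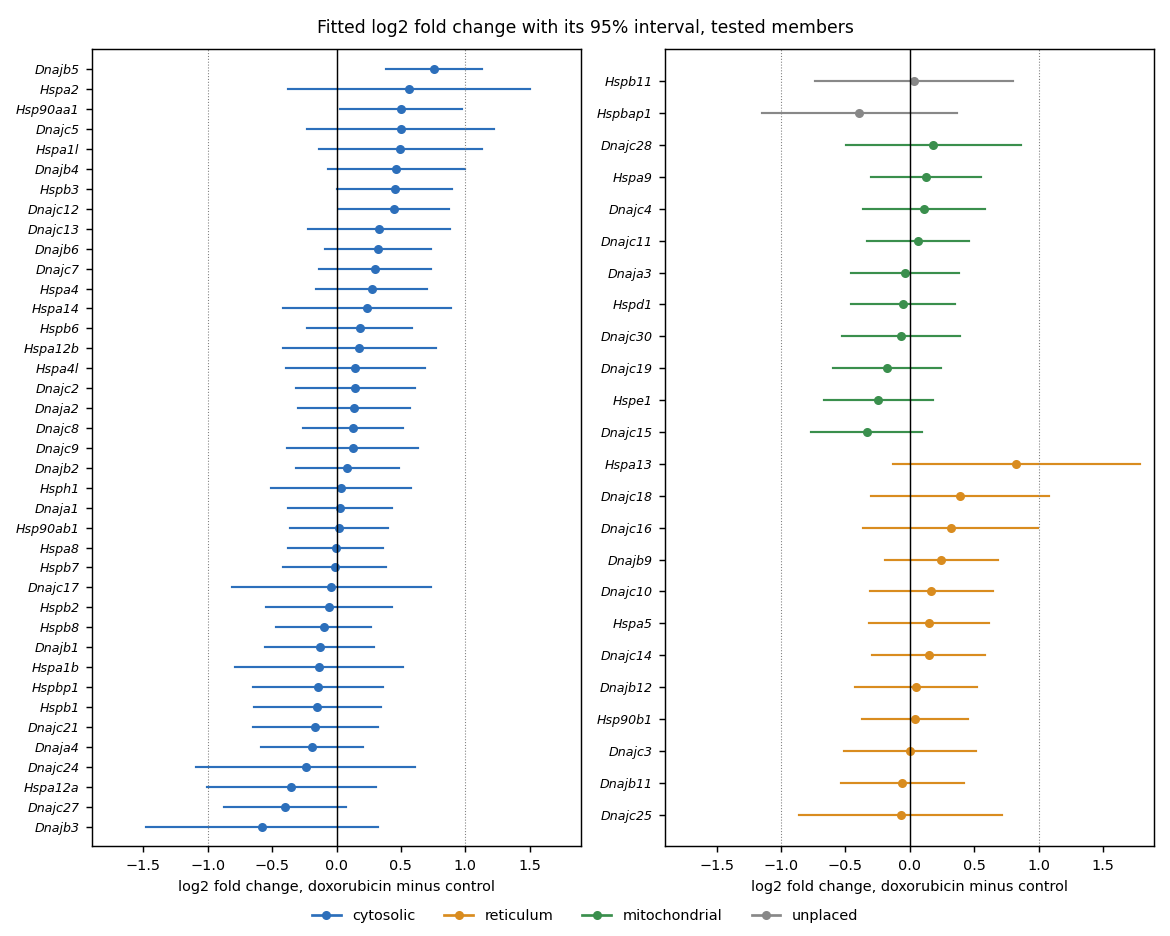
Fitted log2 fold change (points) with its 95% interval (lines) for the 63 tested members, with cytosolic members in the left panel and reticulum, mitochondrial and unplaced members in the right panel; dotted lines mark a 2-fold change. The intervals of Dnajb5, Hsp90aa1, Dnajc12 and Hspb3 lie above 0, and 53 of the 63 lie between the dotted lines.

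Among the cytosolic members, 39 of 47 were tested, 24 had a log2 fold change above 0 and 15 below, and the median was 0.13. All 4 members with an unadjusted p under 0.05 were in this group, which held 39 of the 63 tested members. They were 10.3% of the 39, against 8.1% of all symbols. The median of the tested cytosolic members was 0.12 without control library 1, 0.05 without control library 3 and 0.03 without doxorubicin library 1. No level is compared between genes here, because the counts are not scaled to transcript length.

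Dnajb5 encodes a J-domain cochaperone known to form a complex with thioredoxin and a class II histone deacetylase in heart muscle cells. Its level was 110.4, 92.1 and 104 CPM in control libraries 1, 2 and 3 and 166, 167 and 187 CPM in doxorubicin libraries 1, 2 and 3. The groups were well apart, with SDs of 9.32 around 102 CPM and of 12.01 around 173 CPM (n = 3). The log2 fold change was 0.76 (SE 0.17, 95% interval 0.39 to 1.13), with an unadjusted p of 0.0006225 and an adjusted p of 0.157 in edgeR's quasi-likelihood test, and an adjusted p of 0.0205 in DESeq2, which called 0.842% of symbols. Over the 16 alternatives the log2 fold change ran from 0.70 to 0.85 and the adjusted p from 0.0205 to 0.444, and DESeq2 was the only one of them in which it passed 0.05. The log2 fold change without control library 1 was 0.82.

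Hsp90aa1, the stress-inducible cytosolic Hsp90, had 92.9, 174 and 128 CPM in control and 169.6, 181 and 208 CPM in doxorubicin libraries. Control library 2 lay inside the doxorubicin range and control library 1 was the lowest of the 6. The log2 fold change was 0.50 (SE 0.22) with an adjusted p of 0.580 in edgeR. It was 0.31 without control library 1 and 0.76 without control library 2, with adjusted p values of 0.986 and 0.306 in edgeR. The unadjusted p of Hsp90aa1 was under 0.05 in 12 of the 16 alternatives. In edgeR it was above 0.05 without control library 1 (0.1159) or 3 (0.0981), and without doxorubicin library 2 (0.0585) or 3 (0.1073). Its constitutive partner Hsp90ab1 had 2074, 2283 and 2315 CPM in control and 2226, 2512 and 2019.9 CPM in doxorubicin libraries, and the groups covered each other. The log2 fold change of Hsp90ab1 was 0.019, with a 95% interval of -0.36 to 0.40, and it was -0.024 without control library 1.

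None of the tested cytosolic Hsp70 and Hsp110 members had an unadjusted p under 0.05. Hspa8, the constitutive Hsp70 whose start region carries 2 separate 3-unit elements, 1 of them shown above, had 1017, 1045 and 1032 CPM in control and 948, 1093 and 1037 CPM in doxorubicin libraries. The doxorubicin libraries spread on both sides of the 3 close control values, and the log2 fold change was -0.0073 with a 95% interval of -0.37 to 0.36, or -0.013 without control library 1. Hsph1, the Hsp110 exchange factor that is also heat-inducible, had 56.0, 132 and 102 CPM in control and 96.3, 109 and 90.8 CPM in doxorubicin libraries. Control library 1 was the lowest of the 6 and control library 2 the highest, and the log2 fold change of Hsph1 was 0.036 (SE 0.25) with all libraries, -0.23 (SE 0.18) without control library 1 and 0.32 without control library 2. Hspa4, a relative of Hsph1, had 152, 243 and 229 CPM in control and 238, 248 and 268 CPM in doxorubicin libraries, again with control library 1 the lowest, and its log2 fold change was 0.27 (SE 0.20) with that library and 0.095 without.

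The heat-inducible Hsp70 is encoded by the near-identical genes Hspa1a and Hspa1b, and how reads that fit both were counted was not given in the sources used here. Hspa1a had at most 3 counts in any library, whereas Hspa1b had 45 to 74. Summed, the 2 genes had 25.1, 24.4 and 15.0 CPM in control and 23.7, 20.8 and 13.2 CPM in doxorubicin libraries, so both groups held high and low libraries. Hspa1b alone had a fitted log2 difference of -0.14 (SE 0.30), which was 0.019 without control library 1. The related Hspa1l, best known from the testis, had 15.99, 16.4 and 8.78 CPM in control and 19.8, 17.4 and 20.0 CPM in doxorubicin libraries, on 31 to 68 counts. Its groups did not overlap, but the log2 fold change of 0.50 (SE 0.30) had an adjusted p of 0.702 in edgeR. Without control library 3, the lowest of the 6, the log2 fold change of Hspa1l was 0.24. In RefSeq, Hspa1l shares 468 bases with Hspa1a, and reads from such stretches cannot be told apart where strand was not used.

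The other Hsp70 relatives gave wide intervals. Hspa12b, an atypical Hsp70 of endothelial cells, had 67.8, 109 and 93.1 CPM in control and 154, 75.9 and 74.9 CPM in doxorubicin libraries. Doxorubicin library 1 alone was high, and the log2 fold change of 0.18 (SE 0.28) was -0.25 without that library and 0.016 without control library 1. Hspa12a (-0.35, SE 0.31), Hspa14, which works at the ribosome (0.23, SE 0.30), Hspa4l (0.15, SE 0.25) and Hspa2 (0.56, SE 0.44, on 8 to 25 counts) had group values that overlapped. Without control library 1 the value was -0.0024 for Hspa14 and 0.39 for Hspa2. Hspbp1, which promotes nucleotide exchange on Hsp70, had a fitted log2 difference of -0.15 (SE 0.24), which was 0.15 without control library 1.

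Of the 7 tested members with the Hspb prefix, which include the unplaced Hspb11, 1 had an unadjusted p under 0.05 (14.3%, against 8.1% of all symbols). That was Hspb3, a muscle-enriched member that pairs with the Hspb2 protein, with 62.8, 45.2 and 58.0 CPM in control and 92.5, 67.5 and 67.9 CPM in doxorubicin libraries. The groups were apart by less than the spread within either one, and the log2 fold change was 0.45 (SE 0.21) with an adjusted p of 0.608 in edgeR. Its unadjusted p was under 0.05 in 10 of the 16 alternatives, and not in DESeq2, limma voom or the fit with a replicate block (log2 fold change 0.45). Without doxorubicin library 1, the highest of the 6, the log2 fold change of Hspb3 was 0.29 and the unadjusted p 0.2048, and the p was also above 0.05 without control library 2 or 3. Hspb2 itself had 411, 213 and 263 CPM in control and 309.7, 285 and 258 CPM in doxorubicin libraries. Control library 1 was the highest and control library 2 the lowest, and the log2 fold change of -0.057 (SE 0.23) was 0.26 without control library 1. In RefSeq, Hspb2 shares 1331 bases with Cryab, the small heat shock protein alpha-B crystallin, so its reads may include some of that gene.

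The cardiac small heat shock proteins Hspb6, Hspb7, Hspb8 and Hspb1 had group values that overlapped. Hspb7, which is needed for thin filament integrity in the heart, had 4583, 3891 and 3305 CPM in control and 4107, 3570.4 and 4001 CPM in doxorubicin libraries, and the log2 fold change was -0.012 (95% interval -0.41 to 0.39), or 0.12 without control library 1. Hspb6, a target of cyclic nucleotide-dependent kinases, had 3732, 3425 and 2691 CPM in control and 3469, 3493 and 4184 CPM in doxorubicin libraries. The groups overlapped with doxorubicin library 3 the highest, and the log2 fold change of Hspb6 was 0.18 (SE 0.19), or 0.29 without control library 1. Hspb8, the partner of Bag3 in selective autophagy of damaged filament proteins, had 568, 486 and 479.8 CPM in control and 482, 464 and 484 CPM in doxorubicin libraries, with a fitted log2 difference of -0.10 (SE 0.17), or -0.013 without control library 1. Hspb1 (Hsp27) had 656, 463 and 445 CPM in control and 513, 569 and 329 CPM in doxorubicin libraries, where control library 1 was the highest and doxorubicin library 3 the lowest, and its log2 fold change was -0.15 (SE 0.23), or 0.056 without control library 1. The unplaced Hspb11, a ciliary transport protein despite its name, and Hspbap1 had log2 fold changes of 0.032 and -0.39 on 17 to 37 counts, and of 0.37 and -0.25 without control library 1.

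**Figure D2:**
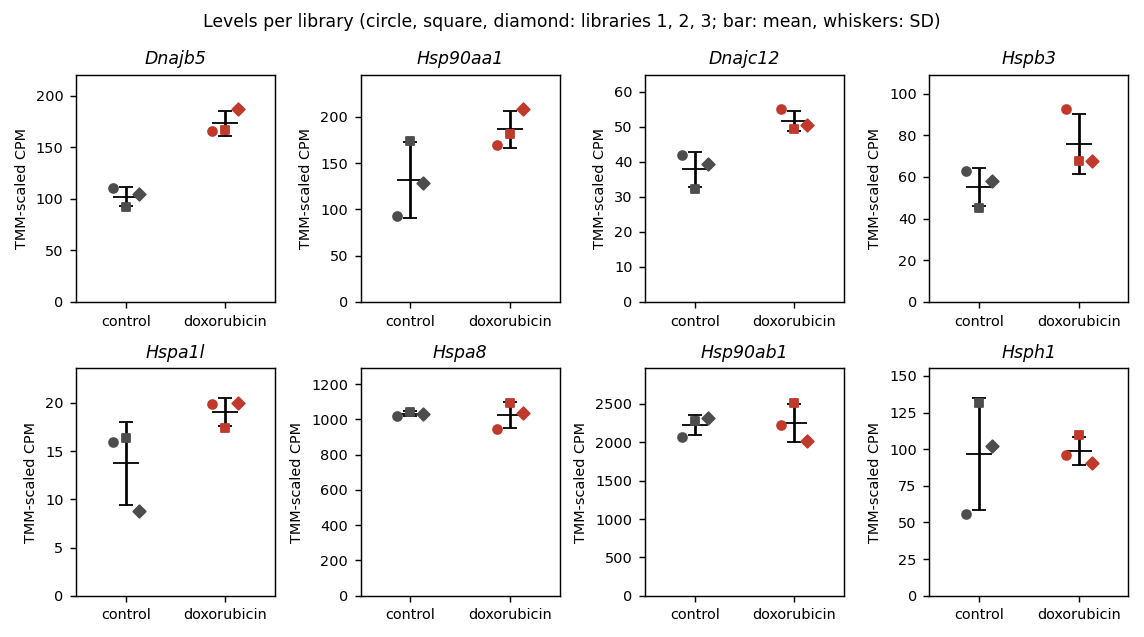
Level (TMM-scaled CPM, axis from 0) of 8 members in each library, with markers for libraries 1, 2 and 3, a bar at the group mean and whiskers of 1 SD (n = 3). Doxorubicin libraries lie above all control libraries for Dnajb5, Dnajc12, Hspb3 and Hspa1l, and the groups overlap for Hsp90aa1, Hspa8, Hsp90ab1 and Hsph1.

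Cytosolic J-domain members were tested for 20 of 26 symbols, and 13 had a log2 fold change above 0. At an unadjusted p under 0.05 there were 2, or 10% against 8.1% of all symbols. Besides Dnajb5, 1 had an unadjusted p under 0.05: Dnajc12, a cochaperone of the aromatic amino acid hydroxylases, with 41.9, 32.3 and 39.3 CPM in control and 55.0, 49.5 and 50.5 CPM in doxorubicin libraries. The groups did not overlap, and the log2 fold change was 0.45 (SE 0.20) with an adjusted p of 0.592 in edgeR. The unadjusted p of Dnajc12 was under 0.05 in 8 of the 16 alternatives. It was above it in DESeq2 (0.0626), with the replicate block (log2 fold change 0.45, p 0.0589), without the low-count filter (0.0518), and on leaving out any library other than control library 1. Dnajb1, the main heat-inducible J-domain protein, had 105 to 150 counts, and its log2 fold change was -0.13 (SE 0.20), or -0.035 without control library 1. Dnaja1, Dnaja2 and Dnaja4, the class A cochaperones of cytosolic Hsp70, had log2 fold changes of 0.028 (SE 0.19), 0.13 (SE 0.20) and -0.19 (SE 0.18), and that of Dnaja1 was 0.010 without control library 1. Dnajb4, another stress-responsive class B member, had 51.0, 93.0 and 69.9 CPM in control and 92.5, 74.6 and 128 CPM in doxorubicin libraries, and these overlapped, with a fitted log2 difference of 0.47 (SE 0.25). For Dnajb4 it was 0.28 without control library 1, 0.24 without doxorubicin library 3 and 0.71 without control library 2. The unadjusted p values of Dnajb4 in these edgeR fits were 0.2581, 0.3521 and 0.0185. Without control library 2 its adjusted p was 0.448, and 9.29% of all symbols had an unadjusted p under 0.05. Over the 16 alternatives the unadjusted p of Dnajb4 was under 0.05 in 3. Dnajb6, which keeps the intermediate filament protein desmin and other clients from aggregating in muscle, had a fitted log2 difference of 0.32 (SE 0.19), with doxorubicin library 1 at 159 CPM and the other 5 libraries at 96.1 to 116 CPM.

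Dnajb2, which works with the proteasome, had a fitted log2 difference of 0.08 (SE 0.19), or 0.21 without control library 1. Dnajc7, which binds both Hsp70 and Hsp90, had 0.30 (SE 0.20), or 0.19 without control library 1, and the nuclear Dnajc8 had 0.13 (SE 0.18), or 0.20 without it. The groups of each overlapped. The 1 tested member whose doxorubicin values all lay below control was Dnajb3, with 4.57, 4.43 and 6.51 CPM in control and 3.52, 3.73 and 3.23 CPM in doxorubicin libraries. It rested on 10 to 23 counts, its log2 fold change was -0.58 (SE 0.42), and in RefSeq it lies inside the Ugt1a genes.

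Reticulum members were tested for 12 of 13 symbols, none had an unadjusted p under 0.05, and none had groups that did not overlap. Their median log2 fold change was 0.15, with 10 above 0 and 2 below, and without control library 1 it was 0.09, with 7 above 0 and 5 below. In that fit Dnajb9, a reticulum J-domain protein that binds misfolded clients and was named after its values were seen, had an unadjusted p of 0.0358 and an adjusted p of 0.83 in edgeR. Its levels were 74.2, 49.2 and 54.1 CPM in control and 69.4, 64.7 and 76.1 CPM in doxorubicin libraries, so that control library 1 alone lay among the doxorubicin values. The log2 fold change of Dnajb9 was 0.24 (SE 0.20) with control library 1 and 0.44 (SE 0.19) without it. Hspa5 (BiP), the Hsp70 of the reticulum and the usual readout of the unfolded protein response, had 346, 575 and 515 CPM in control and 574, 596 and 422 CPM in doxorubicin libraries. Control library 1 was the lowest of the 6, and the log2 fold change of Hspa5 was 0.15 (95% interval -0.32 to 0.62) with it and -0.032 without it. Hsp90b1 (Grp94), the Hsp90 of the reticulum, had 238, 278 and 298 CPM in control and 248, 339.7 and 249 CPM in doxorubicin libraries, with a fitted log2 difference of 0.039 (SE 0.19), or -0.042 without control library 1.

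Hspa13, a reticulum Hsp70 without the usual client-binding domain, had the highest log2 fold change of the tested members, 0.83 (SE 0.45, unadjusted p 0.0844, adjusted p 0.674 in edgeR), on 7 to 49 counts. Its levels were 2.66, 6.20 and 7.08 CPM in control and 7.68, 6.53 and 14.4 CPM in doxorubicin libraries, so that doxorubicin library 2 lay among the control libraries, and the log2 fold change was 0.52 without control library 1 and 0.41 without doxorubicin library 3. Of the 9 tested reticulum J-domain members, Dnajc10, which reduces disulfides of misfolded proteins, had 63.6, 116 and 85.8 CPM in control and 89.6, 91.1 and 117 CPM in doxorubicin libraries, and its log2 fold change was 0.17 (SE 0.22) with control library 1 and -0.015 without it. Dnajc3, an inhibitor of the eIF2alpha kinases, had a fitted log2 difference of 0.0044 (SE 0.24), or -0.067 without control library 1. The 9 ranged from -0.07 for Dnajc25, which was -0.17 without that library, to 0.39 for Dnajc18.

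All 10 mitochondrial members were tested, and none had an unadjusted p under 0.05 or groups that did not overlap. Their median log2 fold change was -0.04, with 4 above 0 and 6 below, and -0.05 without control library 1. Their 95% intervals lay inside a 2-fold change for all 10, and inside a 1.5-fold change for 6. Hspa9 (mortalin), the matrix Hsp70 that pulls proteins through the inner membrane, had 662, 1064 and 922 CPM in control and 956, 903 and 1028 CPM in doxorubicin libraries. Control library 1 was again the lowest, and the log2 fold change of Hspa9 was 0.12 (SE 0.20) with it and -0.040 without it.

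The chaperonin pair with the shared start region gave overlapping groups for both genes. Hspd1 (Hsp60) had 350.2, 509 and 436 CPM in control and 452, 403 and 393 CPM in doxorubicin libraries, and its log2 fold change was -0.053 (SE 0.19). Hspe1 (Hsp10) had 294, 224 and 203 CPM in control and 235, 190.0 and 183 CPM in doxorubicin libraries, and its log2 fold change was -0.24 (SE 0.20). In control library 1 Hspd1 was at its lowest and Hspe1 at its highest of the 6 libraries, so the 2 genes went apart there. Without that library the log2 fold changes were -0.18 for Hspd1 and -0.067 for Hspe1. Dnajc15, a J-domain protein of the inner membrane import motor, had 214, 139 and 144 CPM in control and 120.0, 134 and 139.9 CPM in doxorubicin libraries. Its log2 fold change was -0.34 (SE 0.20), and -0.10 without control library 1, the highest of the 6. Its paralog Dnajc19, which causes a cardiomyopathy when mutated in humans, had 100.5, 95.7 and 85.5 CPM in control and 103, 75.9 and 69.9 CPM in doxorubicin libraries, with a fitted log2 difference of -0.18 (SE 0.20), or -0.12 without control library 1.

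**Figure D3:**
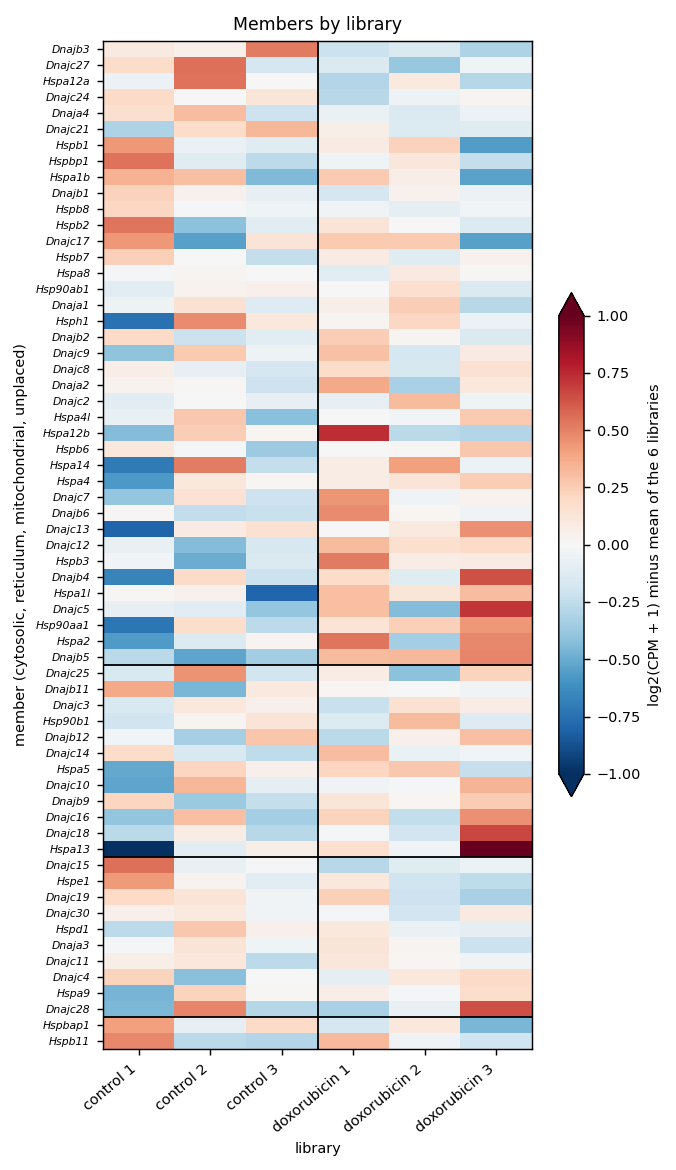
Level of each tested member in each library as log2(CPM + 1) minus its mean over the 6 libraries, with members grouped by compartment and ordered by fitted log2 fold change within it; the colour scale stops at 1 in either direction. Control library 1 holds the lowest value of 20 of the 63 members, among them Hsph1, Hspa4, Hspa5, Hspa9 and Hspa13.

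Control library 1 moved many members both ways. It was the lowest of the 6 libraries for 20 of the 63 members (31.7%, against 27.5% of all symbols) and the highest for 15 (23.8%, against 26.7%). Across genes, the deviation of control library 1 from the other control libraries had a Spearman's rho with gene span of -0.219 over 62 members and of -0.374 over 8987 symbols. The log2 fold change itself had a rho with gene span of -0.022 over the 62 members and of 0.218 over all symbols. These points share the same 6 libraries, and genes are not independent replicates.

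The 16 tested heat-inducible genes, a list of 17 that includes 11 members, had 5 log2 fold changes above 0 and 11 below, with a median of -0.06 against 0.02 for all symbols. None passed the adjusted threshold in edgeR. At an unadjusted p under 0.05 there were 3 (18.8%, against 8.1% of all symbols), with Hsp90aa1 higher and the Hsp90 cochaperones Fkbp4 and Chordc1 lower. Fkbp4, an immunophilin that links Hsp90 to steroid receptors, had 572, 433 and 461 CPM in control and 259.8, 404 and 289 CPM in doxorubicin libraries. All doxorubicin values lay below control, and the log2 fold change was -0.62 (SE 0.21) with an adjusted p of 0.396 in edgeR. Chordc1 had 60.9, 71.7 and 64.0 CPM in control and 42.9, 51.6 and 49.1 CPM in doxorubicin libraries, also without overlap, with a fitted log2 difference of -0.45 (SE 0.19) and an adjusted p of 0.550 in edgeR. Bag3, the cochaperone that joins Hsp70 to Hspb8, had 706, 574 and 628 CPM in control and 481, 549.6 and 548 CPM in doxorubicin libraries. Its groups did not overlap either, and the log2 fold change was -0.27 (SE 0.18). Fkbp4, Chordc1 and Bag3 were the 3 of the 16 without overlap (18.8%, against 13.4% of all symbols). Cryab had a fitted log2 difference of -0.063 (SE 0.19), and the factor gene Hsf1 -0.10 (SE 0.20). The 5 members with a 3-unit heat shock element had log2 fold changes of -0.24 to 0.036 and the 3 with a reticulum stress element of 0.0044 to 0.15, and none of these 8 had an unadjusted p under 0.05.

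Among other lists of folding genes, that of cytosolic cochaperones and regulators had 21 of 23 tested, 9 above 0 and 12 below. It shares genes with the heat-inducible list. The 2 at an unadjusted p under 0.05 (9.52%, against 8.1% of all symbols) were again Fkbp4 and Chordc1. Groups did not overlap for 3 (14.3%, against 13.4% of all symbols), again Fkbp4, Chordc1 and Bag3. The 18 tested reticulum folding genes were split 9 to 9, with a median of -0.00021 and none at an unadjusted p under 0.05. Hyou1, the reticulum relative of Hsph1, had at most 2 counts in a library, and Xbp1, a factor of the unfolded protein response, was listed at 0. Both symbols were on 2 rows that were summed, as was Dnaja3, which had 127 to 176 counts. The cardiomyocyte marker Tpm1, on 12 rows, was also listed at 0, so such counts do not show that a transcript was absent. Whether reads were lost for symbols on several rows was not tested. The 11 tested mitochondrial folding genes had 4 above 0 and 7 below, with a median of -0.09, and doxorubicin values of Trap1, the mitochondrial Hsp90, were 164, 182 and 173 CPM against 220.4, 220.1 and 209 CPM in control. Trap1 thus had a fitted log2 difference of -0.32 (SE 0.17, adjusted p 0.645 in edgeR). The groups of 2 of these 11 genes did not overlap (18.2%, against 13.4% of all symbols), Trap1 and the disaggregase Clpb, whose log2 fold change was -0.30 (SE 0.19). The 11 tested chaperonin and prefoldin genes of the cytosol had 6 above 0 and 5 below, with a median of 0.07. The groups of 1 of them, Tcp1, did not overlap (9.09%, against 13.4% of all symbols), with doxorubicin above control.

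The 10 members that did not pass the low-count filter were Dnajb13, Dnajb14, Dnajb7, Dnajb8, Dnajc22, Dnajc5b, Dnajc5g, Dnajc6, Hspa1a and Hspb9. Of these, 4 (Dnajb7, Dnajb8, Dnajc5g and Hspb9) were listed at 0 in every library, and Dnajb14, a reticulum membrane protein, had 3 to 12 counts. Dnajc22, a membrane protein with a J domain, had 12, 8 and 11 counts in control and 5, 4 and 3 counts in doxorubicin libraries, without overlap. When no filter was used its log2 fold change was -1.56 (SE 0.66), with an unadjusted p of 0.0232 and an adjusted p of 0.536 in edgeR.

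**Figure D4:**
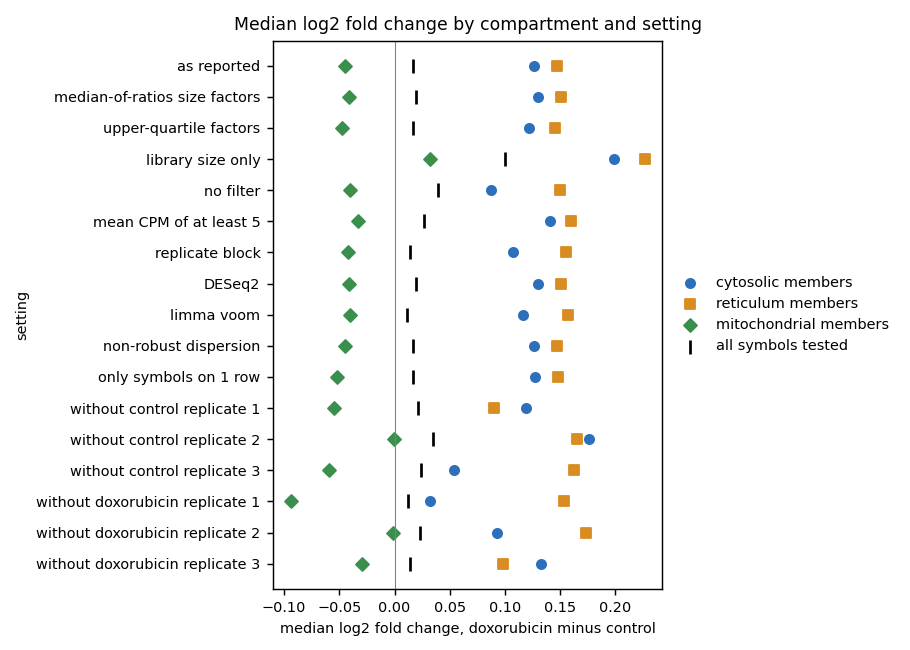
Median log2 fold change (horizontal axis) of the tested cytosolic, reticulum and mitochondrial members, and of all symbols tested (bars), in the reported fit and each alternative (vertical axis). The reticulum median lies between 0.09 and 0.23, the cytosolic one between 0.03 and 0.20, and the mitochondrial one between -0.09 and 0.03.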

How the data were processed

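For the 6 heart libraries the authors deposited a table of raw counts, not normalized. Per the submitters' processing notes the build was mRatBN7.2 and FastQC, Trimmomatic, STAR and HTSeq were used. The annotation, counting mode and use of strand were not given in the sources used here. Rows sharing a symbol were summed (18473 rows, 17487 symbols, 599 of them on several rows), which among the members concerned only Dnaja3. All symbols were fitted together in edgeR 4.0.16 (R 4.3.3): TMM scaling, filterByExpr with a minimum count of 10 and minimum total of 15, robust quasi-likelihood F test of doxorubicin against control, Benjamini-Hochberg adjustment, threshold 0.05. The standard error is the absolute log2 fold change over the square root of F, and intervals use the fit's degrees of freedom. On simulated counts for 9099 symbols the fit recovered 56.6% of 2-fold and 96.6% of 4-fold changes. Those counts had a spread set by expression level only and no library that stood apart, as control library 1 did. The shares therefore do not give the recovery in these data. Log2 CPM used a prior count of 2, and the heat map a pseudocount of 1.

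Groups came from the sample titles. Counts of 3 are 0.855 to 1.35 CPM by library size alone, a floor that covers counting error only. The members and lists were chosen with earlier results of these data known. Named were all tested members outside the J-domain family, the 12 J-domain members with the highest mean CPM, and those with an unadjusted p under 0.05 or groups that did not overlap; others were named after their values were seen, as ends of a range, by role, or for their start region. Related genes were named at an unadjusted p under 0.05, and otherwise after their values were seen. Alternatives were run with DESeq2 1.42.0, limma 3.58.1 (voom) and other edgeR settings. RefSeq (GRCr8) gave promoters, gene spans and overlaps, and held 72 of the 73 members by symbol. The description of protein ends listed in the design was not made, since protein sequences were not used here.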

Additional observations from a re-analysis of the deposited data

How the results depend on the processing

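Depth limits the members under about 50 counts, and 3 animals per group limit all of them. Leaving out libraries for counts of non-overlapping groups, and library-size scaling for them, were added after the data were examined; where no reason is given, the cause was not tested. Against 0 members past the adjusted threshold, DESeq2 gave 1, where it called 0.842% of all symbols. Each other alternative gave 0 members, and these alternatives called from 0 symbols (limma voom) to 61 symbols (no filter). Against 4 at an unadjusted p under 0.05, the replicate block gave 2 (6.59% of all symbols), DESeq2 gave 2 (7.4%), and leaving out 1 library gave 2 to 6 (5.61% to 9.53%). Same-numbered libraries are different animals and did not deviate together (correlations of -0.185 to 0.0211), and in the fit with the replicate block the log2 fold change of Dnajb5 was 0.76. Against 5 members without overlap, scaling by library size only gave 8 (14% of all symbols), and leaving out 1 library gave 8 to 19 (20.5% to 26.4%), because fewer values have to be separated. Scaling by library size alone moved the all-symbol median from 0.02 to 0.10 and gave medians of 0.20 for cytosolic and 0.032 for mitochondrial members, the latter still below that of all symbols. Without 1 library the medians were 0.03 to 0.18 (cytosolic), 0.09 to 0.17 (reticulum) and -0.09 to -0.00041 (mitochondrial).

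Single members near 0 changed sign. With library size only the log2 fold change became 0.076 for Hspa8, 0.048 for Hspb2, 0.081 for Hspb7 and 0.019 for Hspd1, all below the median of all symbols under that scaling. With a mean CPM of at least 5 it became 0.0046 for Hspa8 and 0.0010 for Hspb7. Leaving out 1 library gave -0.086 to 0.17 for Dnaja1, -0.036 to 0.31 for Dnaja2, -0.017 to 0.21 for Dnajb2, -0.015 to 0.41 for Dnajc10, -0.056 to 0.10 for Hsp90ab1, -0.12 to 0.12 for Hsp90b1, -0.25 to 0.36 for Hspa12b, -0.0024 to 0.64 for Hspa14, -0.37 to 0.085 for Hspa1b and -0.023 to 0.35 for Hspa4l. It gave -0.032 to 0.31 for Hspa5, -0.044 to 0.052 for Hspa8, -0.040 to 0.29 for Hspa9, -0.30 to 0.065 for Hspb1, -0.14 to 0.37 for Hspb11, -0.23 to 0.26 for Hspb2, -0.12 to 0.12 for Hspb7, -0.30 to 0.15 for Hspbp1, -0.18 to 0.091 for Hspd1 and -0.23 to 0.32 for Hsph1. The other members chosen by the naming rule had 1 sign throughout; for Dnajb1, Dnajb9, Dnajc3, Dnajc18 and Dnajc25, only the fit without control library 1 was compared, and there Dnajc3 changed sign.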
